A study of Mus musculus with 9 samples.

Results

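The epidermal growth factor (EGF) family ligands Hbegf, Ereg, Areg, Nrg1, Btc and Tgfa and the ErbB receptors Egfr, Erbb2, Erbb3 and Erbb4 were described across 3 preparations of mouse heart cells. The 10 genes were chosen by name, with earlier results of these data known. Each was read from the probe annotated to that gene alone. Such a probe was found for 9 of the 10 genes, out of 19933 genes measured in all. Areg, which encodes amphiregulin, was not analysed here. Each of the 9 genes had 1 such probe.

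The groups were adult cardiac fibroblasts, embryo cardiac fibroblasts and embryo cardiomyocytes, each with 3 arrays described as biological replicates. The cardiomyocytes were Nkx-YFP positive, that is, they carried a fluorescent reporter, and no such selection is named for the fibroblasts. Strain, embryonic stage, adult age and culture time are not stated in the labels used here. RNA was hybridised to Affymetrix mouse Gene 1.0 ST arrays, and the values are the authors' RMA values, read as log2. RMA, the robust multi-array average, corrects background, normalises arrays and summarises the probes of a transcript. The series set out to find factors from fibroblasts that drive myocytes to proliferate.

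EGF family ligands are made as membrane-anchored precursors, and proteases of the ADAM group release the soluble factor. HB-EGF and epiregulin bind Egfr and Erbb4, whereas neuregulin 1 binds Erbb3 and Erbb4. Erbb2 has no known ligand and acts as the partner of the other receptors, and Erbb3 has a weak kinase and signals through its partners. In the developing mouse heart, neuregulin 1 from the endocardium acts on Erbb4 and Erbb2 of the muscle cells.

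Within groups the arrays correlated at 0.970 to 0.994 over all probes. Replicate 3 of the adult fibroblasts matched its group least (mean r 0.970, against 0.981 for replicates 1 and 2). Adult replicates 1 and 2 correlated at 0.993 with each other. Each member's result on adult cells is therefore also given without replicate 3. The summed level of 10 cardiomyocyte markers, on the linear scale, was 2641 to 4087 in adult fibroblasts, 28694 to 39294 in embryo fibroblasts and 58291 to 62391 in cardiomyocytes. The embryo fibroblast arrays lay between the other groups in this sum, with no overlap. For 10 fibroblast markers the sums were 31299 to 34772 in adult fibroblasts, 14694 to 16939 in embryo fibroblasts and 4624 to 6191 in cardiomyocytes. Of the 10 cardiomyocyte markers 9 fell in adult against embryo fibroblasts, beside 11.2% of all genes. In embryo fibroblasts against cardiomyocytes 7 of 10 fell, beside 11.1% of all genes. Nkx2-5, a cardiac transcription factor gene of that list, passed the limma test in none of the 3 comparisons. For embryo fibroblasts minus cardiomyocytes its log2 difference was -0.05 (adjusted p = 0.813). Its means were 8.23 in adult fibroblasts, 8.25 in embryo fibroblasts and 8.30 in cardiomyocytes. Its probe thus did not separate even adult fibroblasts from cardiomyocytes. The Y-linked genes Eif2s3y, Kdm5d and Uty lay at 4.67 to 6.87 in adult fibroblasts. In embryo fibroblasts they lay at 7.84 to 8.53, and in cardiomyocytes at 8.06 to 9.33. Xist, a gene expressed in female cells, lay at 11.54 to 11.92 in adult fibroblasts. It was also high in embryo fibroblasts (10.84 to 11.04) and cardiomyocytes (10.49 to 11.16), so the embryo groups cannot be read as male alone. Age and sex therefore cannot be told apart in comparisons of adult with embryo cells. In such bulk RNA, fewer cells of a type and less RNA per cell cannot be told apart.

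In adult against embryo fibroblasts, Egfr and Ereg were higher and Hbegf, Nrg1, Erbb2 and Erbb4 were lower. A gene was called at an adjusted p under 0.05 in limma (lmFit and eBayes, two-sided, Benjamini-Hochberg over all 19933 genes). The call was met by 2 of 9 members in the upward direction, beside 8.34% of all genes, and by 4 in the downward direction, beside 11.2% of all genes. Arrays of the groups did not overlap for 7 members, as for 33.0% of all genes. In embryo fibroblasts against cardiomyocytes, 4 members rose (Hbegf, Ereg, Nrg1 and Egfr) and 2 fell (Erbb2 and Erbb4), beside 10.3% and 11.1% of all genes. In either direction 21.4% of all genes were called. Groups did not overlap for 7 members, against 39.1% of all genes. In adult fibroblasts against cardiomyocytes, 3 members rose (Hbegf, Ereg and Egfr) and 2 fell (Erbb2 and Erbb4), beside 17.4% and 18.2% of all genes, and 6 members did not overlap, against 45.9% of all genes. Calls in either direction made up 35.6% of all genes here and 19.5% between the fibroblast groups. Hbegf, Ereg, Egfr, Erbb2 and Erbb4, 5 of 9 members, were called in all 3 comparisons, as were 8.25% of all genes. The median log2 differences of the 9 members were -0.02 in each comparison, and those of all genes were 0.04 for adult against embryo fibroblasts, -0.000333 for embryo fibroblasts against cardiomyocytes and 0.06 for adult fibroblasts against cardiomyocytes. The members moved in both directions, which a median does not show. The 3 comparisons share groups, so they are not independent of each other.

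**Figure D1:**
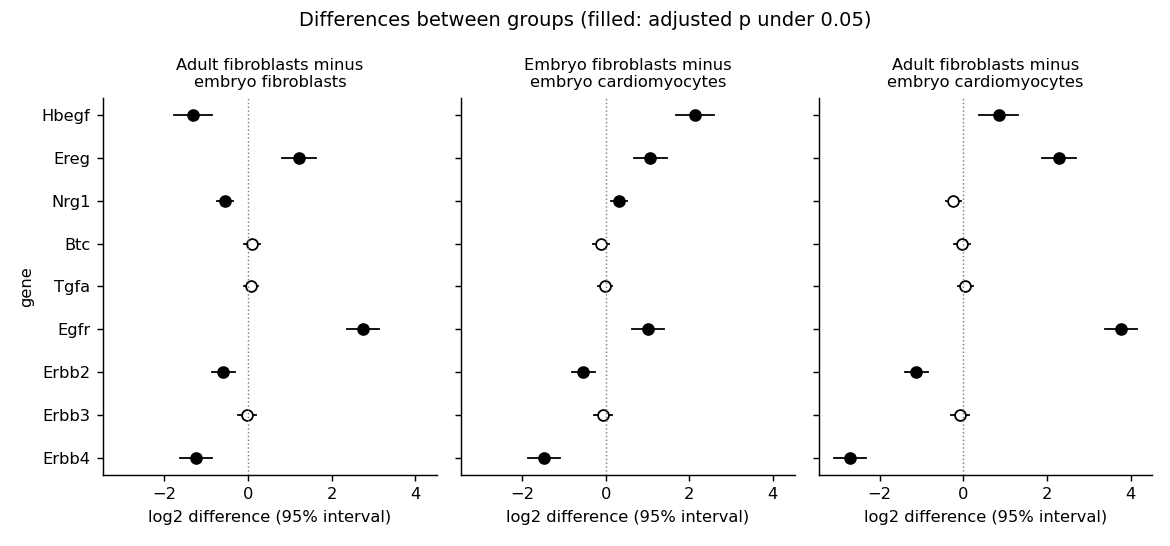
Log2 difference of each measured member (points) with its 95% interval (lines) from limma, n = 3 arrays per group, in 3 comparisons. Filled points passed an adjusted p under 0.05. Egfr was shifted furthest up, by 3.77 between adult fibroblasts and cardiomyocytes, and Erbb4 furthest down, by -2.71 in the same comparison.

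Among the ligands, Hbegf was highest in embryo fibroblasts. It encodes heparin-binding EGF-like growth factor, a ligand that binds heparan sulfate on cell surfaces. Its RMA values were 10.74, 10.84 and 10.03 in adult fibroblasts, 12.01, 11.91 and 11.61 in embryo fibroblasts, and 9.57, 9.82 and 9.70 in cardiomyocytes. No array of any group overlapped with those of another, and the lowest adult value belonged to replicate 3. Adult fibroblasts were 2.47-fold lower than embryo fibroblasts (log2 difference -1.30 ± 0.20, SE, adjusted p = 0.00165). Embryo fibroblasts stood 2.15 ± 0.20 above cardiomyocytes on the log2 scale, which is 4.42-fold (adjusted p = 0.000186). Adult fibroblasts also exceeded the cardiomyocytes, by 1.79-fold (0.84 ± 0.20, adjusted p = 0.00927). All neighbours in the order embryo fibroblasts, adult fibroblasts, cardiomyocytes thus differed beyond their spread. Without adult replicate 3 the log2 differences were -1.05 to embryo fibroblasts and 1.10 to cardiomyocytes.

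Ereg, the gene of epiregulin, was highest in adult fibroblasts and lowest in cardiomyocytes. The 3 adult arrays read 8.78, 8.54 and 9.29, the embryo fibroblast arrays 7.63, 7.76 and 7.57, and the cardiomyocyte arrays 6.50, 6.44 and 6.80. The groups were separated in every pairing, and the highest adult value was again that of replicate 3. The 3 cardiomyocyte values lay below 6.91, the 30th percentile of the probe means, so folds against cardiomyocytes rest on a low level. The step between adult and embryo fibroblasts was 2.32-fold (log2 difference 1.21 ± 0.18, adjusted p = 0.00121). A step of like size, 2.10-fold, separated embryo fibroblasts from cardiomyocytes (1.07 ± 0.18, adjusted p = 0.0026). Over both steps the adult fibroblasts were 4.88-fold above the cardiomyocytes (2.29 ± 0.18, adjusted p = 8.65e-06). Leaving out adult replicate 3 gave 1.00 against embryo fibroblasts and 2.08 against cardiomyocytes. Hbegf and Ereg, both ligands of Egfr, therefore had their highest levels in different fibroblast groups.

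Nrg1, the gene of neuregulin 1, varied over a narrower range and at a low level. Its mean over the 9 arrays, 7.23, was above those of 37.9% of all probes. Its values were 7.03, 6.82 and 7.04 in adult fibroblasts, 7.47, 7.47 and 7.61 in embryo fibroblasts, and 7.21, 7.18 and 7.21 in cardiomyocytes. The embryo fibroblast arrays were above all others, and the adult arrays were below all others. Adult fibroblasts were 1.46-fold lower than embryo fibroblasts (log2 difference -0.55 ± 0.08, adjusted p = 0.00143). Embryo fibroblasts were 1.24-fold higher than cardiomyocytes (0.31 ± 0.08, adjusted p = 0.0257). That call was lost when any of the 6 arrays of these groups was left out, with adjusted p between 0.0548 and 0.0844. The difference between adult fibroblasts and cardiomyocytes, -0.24 ± 0.08, missed the threshold (adjusted p = 0.0508), and it passed without adult replicate 3 (-0.28, adjusted p = 0.0325). The difference from embryo fibroblasts was -0.59 without that array. The probe reports 1 value for a gene with many isoforms, so isoforms of neuregulin could not be told apart.

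Betacellulin (Btc) and transforming growth factor alpha (Tgfa), a pair of further Egfr ligands, passed the test in none of the comparisons. Btc read 7.25, 7.25 and 7.39 in adult fibroblasts, 7.14, 7.22 and 7.25 in embryo fibroblasts, and 7.25, 7.46 and 7.25 in cardiomyocytes. Its embryo fibroblast arrays were below all others by a small margin. Tgfa read 8.05, 8.05 and 8.21 in adult fibroblasts, 7.997, 8.05 and 8.05 in embryo fibroblasts, and 8.05, 8.12 and 7.99 in cardiomyocytes, with overlap in every pairing. The log2 differences of Btc were 0.095 (95% interval -0.095 to 0.285) for adult minus embryo fibroblasts and -0.12 (-0.31 to 0.07) for embryo fibroblasts minus cardiomyocytes. For Tgfa they were 0.07 (-0.10 to 0.24) and -0.02 (-0.19 to 0.15). Without adult replicate 3, adult minus embryo fibroblasts gave 0.05 for Btc and 0.02 for Tgfa, and adult fibroblasts minus cardiomyocytes gave -0.069 and -0.003, none of them called. Each of these genes also had exactly the same value on 4 of 9 arrays, 7.255 for Btc and 8.047 for Tgfa, as did Erbb3 among the receptors at 7.350. Such repeats occurred for 9.78% of all probes.

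The ligand genes Epgn, Ereg, Areg and Btc lie next to each other on mouse chromosome 5, with 0 protein-coding genes between neighbours in RefSeq's GRCm38.p6 annotation. Of the 3 that were measured, Ereg changed in every comparison, and Btc and Epgn were called in none. Epgn, the gene of epigen, read 6.13, 6.27 and 6.54 in adult fibroblasts, 6.50, 6.31 and 6.45 in embryo fibroblasts, and 6.50, 6.65 and 6.43 in cardiomyocytes. Its groups overlapped in every pairing. All of its values lay below 6.91, the 30th percentile of the probe means. The mean of Btc, 7.28, was above those of 39.3% of all probes. A lack of a call at such low levels does not show that a gene stayed unchanged. Hbegf lies on chromosome 18, with 4 protein-coding genes between it and Nrg2, which encodes neuregulin 2. Nrg2 stood at 7.59 ± 0.03 in adult fibroblasts, 7.67 ± 0.11 in embryo fibroblasts and 7.58 ± 0.06 in cardiomyocytes (SD, n = 3 arrays). In limma its adjusted p was 0.521 for adult minus embryo fibroblasts and 0.503 for embryo fibroblasts minus cardiomyocytes.

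**Figure D2:**
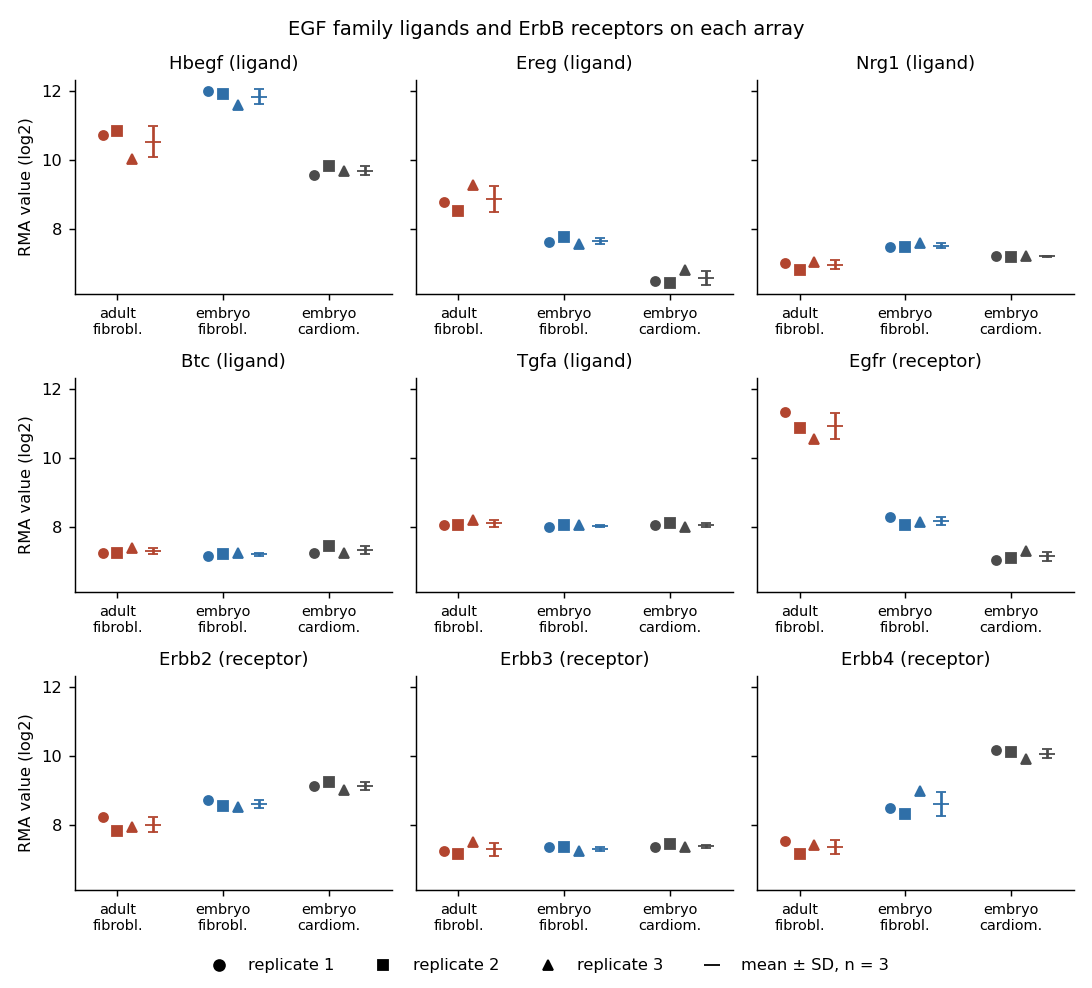
RMA value (log2) of each measured member on each of the 9 arrays, with symbols for the replicate number and the mean ± SD of 3 arrays beside them. Hbegf was highest in embryo fibroblasts (11.61 to 12.01), Egfr in adult fibroblasts (10.56 to 11.33) and Erbb4 in cardiomyocytes (9.92 to 10.17), while Btc, Tgfa and Erbb3 were level.

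The receptors showed opposite orders. Egfr fell off in the order adult fibroblasts, embryo fibroblasts, cardiomyocytes, and Erbb4 and Erbb2 had the reverse order. With calls in all 3 comparisons, the order of Egfr was met by 2.75% of all genes and the reverse order by 4.7%. Their promoters are shown so that the genes with like and with opposite orders can be set side by side. RefSeq's promoter table for GRCm38.p6 held 6 of the 10 genes, with 250 bases before and 50 after the start of the gene, and those of the 3 receptors that changed are printed in the direction of the gene. Capitals mark a match to any of 4 motifs, searched on both strands with overlaps allowed. The GC box was searched as GGGCGG. The pentamer known as the CCAAT box was searched as its name spells it. The TATA box, a core promoter element, was searched as TATAAA. The site of the factor AP-1, a target of growth factor signals, was searched as TGANTCA.
Egfr (chr11:16751953-16752252, plus strand): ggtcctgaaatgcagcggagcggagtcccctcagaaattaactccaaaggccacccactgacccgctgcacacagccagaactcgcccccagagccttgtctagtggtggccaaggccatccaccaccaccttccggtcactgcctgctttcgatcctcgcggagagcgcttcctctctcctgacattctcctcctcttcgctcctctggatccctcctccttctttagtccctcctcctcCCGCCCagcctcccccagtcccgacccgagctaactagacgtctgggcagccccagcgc
Erbb2 (chr11:98412234-98412533, plus strand): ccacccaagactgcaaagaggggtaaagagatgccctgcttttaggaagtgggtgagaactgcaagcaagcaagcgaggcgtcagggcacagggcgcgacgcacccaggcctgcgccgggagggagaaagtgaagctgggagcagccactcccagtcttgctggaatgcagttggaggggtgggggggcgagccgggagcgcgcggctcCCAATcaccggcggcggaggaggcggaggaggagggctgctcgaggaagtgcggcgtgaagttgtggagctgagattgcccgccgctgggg
Erbb4 (chr1:69108010-69108309, minus strand): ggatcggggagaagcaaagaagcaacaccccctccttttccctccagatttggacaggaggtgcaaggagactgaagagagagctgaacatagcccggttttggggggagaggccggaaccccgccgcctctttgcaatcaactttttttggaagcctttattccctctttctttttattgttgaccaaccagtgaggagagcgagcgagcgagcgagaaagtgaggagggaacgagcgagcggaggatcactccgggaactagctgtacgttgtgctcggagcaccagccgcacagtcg
The Egfr window held 1 GC box, 9 bases before the start, and the Erbb2 window held 1 CCAAT box, 41 bases before it. Among 32544 promoters of the table, 35.9% held a GC box, 37.4% a CCAAT box, 13.6% a TATA box and 7.79% an AP-1 site. The Erbb4 window held 0 of the 4 motifs. Their GC contents were 62.3% for Egfr, 66.0% for Erbb2 and 55.3% for Erbb4, against a median of 53.0% over the table. These matches are a description of the letters and not of binding.

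Egfr, the receptor of HB-EGF and epiregulin, had values of 11.33, 10.89 and 10.56 in adult fibroblasts, 8.30, 8.05 and 8.16 in embryo fibroblasts, and 7.05, 7.12 and 7.30 in cardiomyocytes. The adult arrays lay more than 2 log2 units above every other array. Adult fibroblasts were 6.75-fold higher than embryo fibroblasts (log2 difference 2.75 ± 0.17, adjusted p = 7.76e-06). Embryo fibroblasts were 2.02-fold higher than cardiomyocytes (1.01 ± 0.17, adjusted p = 0.00289). The difference between adult fibroblasts and cardiomyocytes, 13.6-fold, was the largest of any member (3.77 ± 0.17, adjusted p = 4.37e-07). Without adult replicate 3, the lowest of its group, the differences were 2.94 and 3.95. The summed level of the fibroblast markers had the same order of groups, as did that of the macrophage markers. Single genes of the lists did not all follow it. The fibroblast genes Col1a1, Col1a2, Col3a1 and Postn averaged higher in embryo than adult fibroblasts. So did the macrophage genes Aif1 and Tyrobp. Among the fibroblast markers 6 of 10 rose and 1 fell in adult against embryo fibroblasts, beside 8.34% and 11.2% of all genes. In embryo fibroblasts against cardiomyocytes 10 of 10 rose, beside 10.3% of all genes. Among the adult arrays, and among the embryo fibroblast arrays, replicate 1 was highest in Egfr and in the mean of the fibroblast markers. In adult cells that mean was 10.93, against 10.74 and 10.80 for replicates 2 and 3. Adult replicate 2 exceeded replicate 3 in Egfr but not in that mean. Cardiomyocyte replicate 1 had the highest fibroblast marker mean of its group (8.75) and the lowest Egfr. The mean of the macrophage markers was highest in adult replicate 2 (9.38). The part of either cell type in the Egfr level was not tested.

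Erbb4, the neuregulin receptor of heart muscle cells, showed the opposite order. It read 7.53, 7.15 and 7.41 in adult fibroblasts, 8.49, 8.32 and 8.99 in embryo fibroblasts, and 10.17, 10.13 and 9.92 in cardiomyocytes. The groups did not overlap. Adult fibroblasts were 2.36-fold lower than embryo fibroblasts (log2 difference -1.24 ± 0.17, adjusted p = 0.000875). Embryo fibroblasts were 2.77-fold lower than cardiomyocytes (-1.47 ± 0.17, adjusted p = 0.000457). Adult fibroblasts were 6.55-fold lower than cardiomyocytes (-2.71 ± 0.17, adjusted p = 2.51e-06). The differences without adult replicate 3 were -1.26 to embryo fibroblasts and -2.74 to cardiomyocytes. The cardiomyocyte markers moved with Erbb4 between the groups. In adult against embryo fibroblasts 9 of 10 fell, beside 11.2% of all genes. In embryo fibroblasts against cardiomyocytes 7 of 10 fell, beside 11.1% of all genes. Among the embryo fibroblast arrays, replicate 3 had the highest Erbb4 value and the highest mean of these markers. That mean was 11.08, against 10.80 and 10.50 for replicates 1 and 2. Within the adult fibroblasts the order was reversed. There replicate 1 had the highest Erbb4 value and the lowest marker mean (7.82), and replicate 2 had the lowest Erbb4 value and the highest marker mean (8.07). Among the cardiomyocytes replicate 1 was highest in Erbb4 and replicate 2 in the marker mean, and replicate 3 was lowest in both. The part of muscle RNA in the Erbb4 level of the embryo fibroblasts was not tested.

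Erbb2, the partner receptor, followed the same order over a smaller range. Its values were 8.24, 7.83 and 7.94 in adult fibroblasts, 8.73, 8.55 and 8.51 in embryo fibroblasts, and 9.12, 9.26 and 9.01 in cardiomyocytes. No groups overlapped. The log2 difference was -0.59 ± 0.12 for adult minus embryo fibroblasts (1.51-fold lower, adjusted p = 0.0072) and -0.53 ± 0.12 for embryo fibroblasts minus cardiomyocytes (1.45-fold lower, adjusted p = 0.0117). The call between the embryo groups was lost without cardiomyocyte replicate 2 (-0.47, adjusted p = 0.053). Adult fibroblasts were 2.18-fold lower than cardiomyocytes (-1.12 ± 0.12, adjusted p = 6.3e-05). Without adult replicate 3 the differences from adult cells were -0.56 and -1.09. The cardiomyocyte markers moved with this gene between the groups as well, and their part was not tested. Within the embryo fibroblasts replicate 3 had the lowest Erbb2 value and the highest mean of these markers, unlike for Erbb4. A further probe, annotated to Erbb2 and Sympk together, was not used and ran in the opposite order of group means.

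Erbb3, the other neuregulin receptor, differed little between the groups and was at a low level. Its mean over the 9 arrays, 7.33, was above those of 40.7% of all probes. It read 7.24, 7.14 and 7.50 in adult fibroblasts, 7.35, 7.35 and 7.25 in embryo fibroblasts, and 7.35, 7.43 and 7.35 in cardiomyocytes. The groups overlapped in every comparison. The log2 differences were -0.02 (95% interval -0.24 to 0.20) for adult minus embryo fibroblasts, -0.06 (-0.28 to 0.16) for embryo fibroblasts minus cardiomyocytes and -0.08 (-0.30 to 0.14) for adult fibroblasts minus cardiomyocytes. The adjusted p-values were 0.901, 0.749 and 0.547. Without adult replicate 3 the differences of adult cells were -0.13 to embryo fibroblasts and -0.19 to cardiomyocytes, neither of them called. Of 6 measured markers of Schwann cells and neural crest, cells known to use Erbb3, 1 rose in adult against embryo fibroblasts. By limma 0 were called in embryo fibroblasts against cardiomyocytes, where 0 also had an unadjusted p under 0.05. Of all genes 19.5% and 21.4% were called either way in these comparisons, and a count of 1 in 6 is near the first share. The risen gene was Cdh19, a cadherin of glial cells, at 7.27, 7.14 and 7.94 in adult fibroblasts, against 5.04, 4.78 and 4.97 in embryo fibroblasts (5.75-fold, adjusted p = 1.77e-05). It was also called in adult fibroblasts against cardiomyocytes (6.14-fold, adjusted p = 4.25e-06). Sox10, which defines these cells, gave adjusted p = 0.428 between the fibroblast groups and 0.652 between the embryo groups.

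Markers of other cell types were set beside the ligands, and they followed them only in part. The summed level of 12 endothelial and endocardial markers was 6368 to 14448 in adult fibroblasts, 12677 to 17177 in embryo fibroblasts and 4765 to 6636 in cardiomyocytes. In embryo fibroblasts against cardiomyocytes 11 of these markers rose, as did Hbegf, Ereg and Nrg1, beside 10.3% of all genes. In adult against embryo fibroblasts 3 fell, as did Hbegf and Nrg1, beside 11.2% of all genes. Calls either way made up 19.5% of all genes there, and a count of 3 in 12 is near that share. Within the adult group the mean of these markers was 9.18, 9.70 and 8.72 in replicates 1, 2 and 3, the same order as Hbegf. Replicate 3 was lowest in both among the embryo fibroblasts (marker mean 9.63), whereas cardiomyocyte replicate 1 had the highest marker mean (8.85) and the lowest Hbegf. The summed level of 13 macrophage markers, on the same scale, was 6416 to 11363 in adult fibroblasts, 4250 to 5851 in embryo fibroblasts and 2505 to 2833 in cardiomyocytes. Of these markers 5 rose and 1 fell in adult against embryo fibroblasts, and 9 rose in embryo fibroblasts against cardiomyocytes, beside Ereg in each case. Of all genes 8.34% rose and 11.2% fell in the first comparison, and 10.3% rose in the second. For Ereg the order within the adult group differed: replicate 3 was highest in Ereg, whereas replicate 2 was highest in the mean of the macrophage markers (9.38, against 8.61 and 8.79 for replicates 1 and 3). The sums for 10 epicardial and mesothelial markers were 2449 to 2744 in adult fibroblasts and 3539 to 4079 in embryo fibroblasts. In cardiomyocytes they were 2522 to 2821, so the sum peaked in the same group as Hbegf and Nrg1. Of these markers 7 fell in adult against embryo fibroblasts and 4 rose in embryo fibroblasts against cardiomyocytes, beside 11.2% and 10.3% of all genes. In each of these comparisons 0 went the other way. Aldh1a2 averaged highest in adult fibroblasts (9.37) and Krt19 in cardiomyocytes (8.34). Smooth muscle and pericyte markers, 8 in number, summed to 2817 to 5709 in adult fibroblasts, 5710 to 6190 in embryo fibroblasts and 9681 to 10376 in cardiomyocytes. The list did not move one way. Adult against embryo fibroblasts, 2 rose and 4 fell, and in embryo fibroblasts against cardiomyocytes 2 rose and 2 fell. In adult fibroblasts against cardiomyocytes 3 rose and 4 fell. Calls either way made up 19.5%, 21.4% and 35.6% of all genes in these comparisons. The contractile genes Acta2 and Cnn1, the brightest of the list in cardiomyocytes (means of 12.02 and 11.84), weigh most in that sum, while the pericyte gene Rgs5 averaged 11.10 in adult fibroblasts, 8.81 in embryo fibroblasts and 7.40 in cardiomyocytes. These genes were picked out after their values were seen. How much of any ligand came from such cells was not tested.

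**Figure D3:**
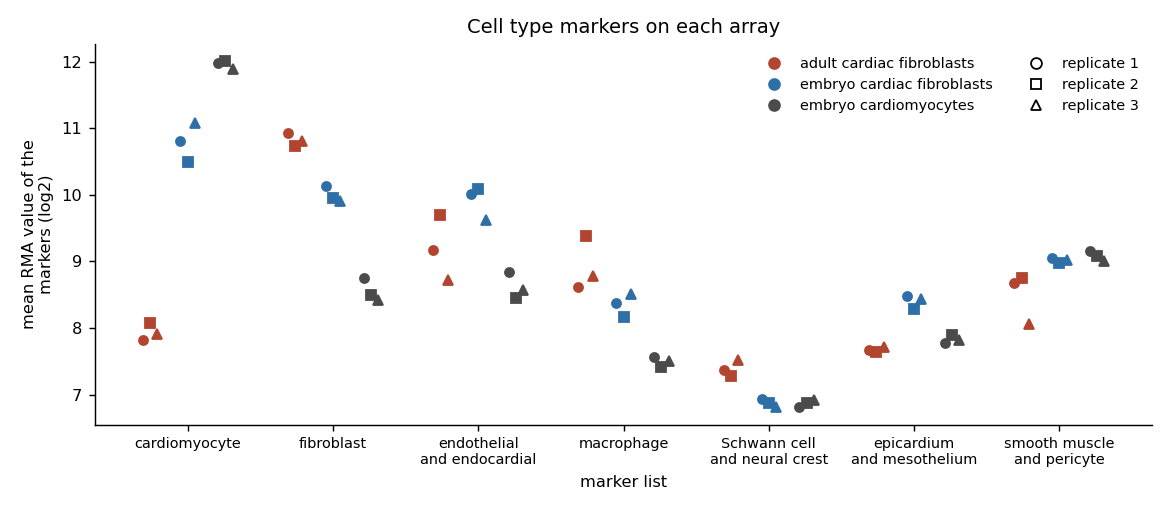
Mean RMA value (log2) of each marker list on each of the 9 arrays, coloured by group, with symbols for the replicate number. Cardiomyocyte markers averaged 10.50 to 11.08 in embryo fibroblasts, between the adult fibroblasts (7.82 to 8.07) and the cardiomyocytes (11.89 to 12.00).

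The remaining ligand genes of the family did not pass the test. Egf, Epgn, Nrg2, Nrg3 and Nrg4 gave 0 calls in each comparison by limma, and their groups overlapped throughout. The largest log2 difference among them was 0.26, of Nrg3 in adult against embryo fibroblasts (unadjusted p = 0.0451, adjusted p = 0.154), the only unadjusted p under 0.05 among these genes.

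Of 10 genes that shed or process the ligands, 2 rose and 3 fell in adult against embryo fibroblasts, beside 8.34% and 11.2% of all genes. Adam17, the main protease that releases HB-EGF, epiregulin and other Egfr ligands, was 2.07-fold higher (10.56, 10.78 and 10.68 in adult fibroblasts, against 9.59, 9.58 and 9.71 in embryo fibroblasts; log2 difference 1.05 ± 0.09, adjusted p = 4.26e-05). Adam10, the main protease for betacellulin and EGF, was 2.13-fold lower (9.10, 9.38 and 9.19 in adult fibroblasts, against 10.15, 10.53 and 10.26 in embryo fibroblasts; -1.09 ± 0.12, adjusted p = 0.000201). These proteases thus moved in opposite directions between the fibroblast groups. Adam9 was also higher (0.47), and Adam12 (-0.59) and Bace1, a protease that cleaves neuregulin 1 (-0.56), were lower. In embryo fibroblasts against cardiomyocytes 3 rose and 0 fell, beside 10.3% and 11.1% of all genes, namely Adam12 (0.72), the rhomboid-related gene Rhbdf1 (0.42) and Adam10 (0.40). In adult fibroblasts against cardiomyocytes 5 rose and 2 fell, beside 17.4% and 18.2% of all genes, led by Adam17 (1.26), the inhibitor gene Timp3 (1.25) and Adam9 (0.53), with Adam10 (-0.70) and Bace1 (-0.53) lower. Timp3 varied among the adult arrays (11.36, 11.68 and 10.13).

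Among 8 membrane partners of HB-EGF and heparan sulfate carriers, 2 rose and 0 fell in each of the comparisons between fibroblasts and between embryo cells, where 19.5% and 21.4% of all genes were called either way. A count of 2 in 8 is near those shares. Cd44, a surface protein that can carry heparan sulfate, was 2.02-fold higher in adult than embryo fibroblasts (1.01 ± 0.10, adjusted p = 0.000114) and 1.98-fold higher in embryo fibroblasts than cardiomyocytes (0.99 ± 0.10, adjusted p = 0.000241). Syndecan 2 (Sdc2) rose in adult against embryo fibroblasts (1.29) and syndecan 3 (Sdc3) in embryo fibroblasts against cardiomyocytes (0.43). Cd9, a tetraspanin that binds the HB-EGF precursor, read 10.86, 10.60 and 9.26 in adult fibroblasts, 9.61, 9.22 and 8.93 in embryo fibroblasts, and 8.27, 7.95 and 8.13 in cardiomyocytes. It passed the test for adult fibroblasts against cardiomyocytes (4.35-fold, adjusted p = 0.00127) but not in the other comparisons (adjusted p = 0.0949 and 0.0532), and adult replicate 3 was the lowest of its group. In adult fibroblasts against cardiomyocytes 5 members of the list rose and Gpc1 fell (-0.28), beside 17.4% and 18.2% of all genes.

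Of 17 inhibitors of the receptors and their pathway, 11 rose and 0 fell in embryo fibroblasts against cardiomyocytes, beside 10.3% and 11.1% of all genes. Their median log2 difference was 0.61, against -0.000333 for all genes. Errfi1, a feedback inhibitor that binds the Egfr kinase, was 5.39-fold higher (11.56, 11.64 and 11.48 in embryo fibroblasts, against 9.57, 8.81 and 9.002 in cardiomyocytes; 2.43 ± 0.17, adjusted p = 4.8e-05). The phosphatase gene Dusp4 was 3.10-fold higher (1.63 ± 0.14) and Spred1, an inhibitor of the Ras pathway, stood 1.49 ± 0.17 higher on the log2 scale. In adult against embryo fibroblasts 2 rose and 4 fell, beside 8.34% and 11.2% of all genes. Lrig3 (0.55) and Spry2 (0.49) were higher, and the phosphatase genes Dusp4 (-1.36 ± 0.14), Dusp6 (-1.17 ± 0.19) and Dusp5 (-0.53 ± 0.11), which act on MAP kinases, were the most reduced. Dusp6 had values of 7.75, 8.39 and 7.56 in adult fibroblasts, 9.15, 8.95 and 9.11 in embryo fibroblasts, and 8.31, 8.06 and 7.96 in cardiomyocytes. Its embryo fibroblast arrays were above all others, as were those of Hbegf. In adult fibroblasts against cardiomyocytes 7 rose and 0 fell, led by Errfi1 (2.73), Spred1 (1.73) and Spry2 (1.56). Of all genes 17.4% rose and 18.2% fell there. Calls either way made up 35.6% of all genes, and a count of 7 in 17 is near that share.

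Of the adaptors and kinases of the pathway 20 of 25 were measured. Among them 1 rose and 2 fell in adult against embryo fibroblasts, 6 rose and 0 fell in embryo fibroblasts against cardiomyocytes, and 8 rose and 2 fell in adult fibroblasts against cardiomyocytes. Of all genes 19.5%, 21.4% and 35.6% were called either way in these comparisons. The count between the fibroblast groups is near the first of these shares. Gab1, an adaptor downstream of these receptors, was 2.03-fold lower in adult than embryo fibroblasts (-1.02 ± 0.11, adjusted p = 0.00025), with Plcg1 lower (-0.55) and Nck1 higher (0.66). Between the embryo groups Sos2 (0.72), Pik3ca (0.61) and Stat3 (0.56) were the most increased. For adult fibroblasts against cardiomyocytes the largest changes were those of Nck1 (1.03), Sos2 (0.86) and Stat3 (0.76) upward, and of Gab1 (-1.30) and Akt1 (-0.73) downward.

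Early response genes, which growth factor signals are known to induce, went both ways. Their counts, and those over all lists, stand beside 8.34% of all genes higher and 11.2% lower in adult against embryo fibroblasts, 10.3% and 11.1% in embryo fibroblasts against cardiomyocytes, and 17.4% and 18.2% in adult fibroblasts against cardiomyocytes. Of 18, 5 rose and 3 fell in adult against embryo fibroblasts, led by Ptgs2 (1.81), Fosl1 (1.54) and Ets2 (1.05) upward and by Egr2 (-0.70), Etv5 (-0.68) and Phlda1 (-0.61) downward. In embryo fibroblasts against cardiomyocytes 6 rose and 4 fell. Ptgs2 (4.28), Myc (2.88) and Plaur (1.45) were higher, while Jun (-0.75), Fos (-0.64) and Egr1 (-0.63) were lower. In adult fibroblasts against cardiomyocytes 7 rose and 4 fell, with Ptgs2 (6.09), Myc (3.60) and Fosl1 (2.78) higher and Fos (-0.77), Jun (-0.72) and Atf3 (-0.64) lower. Over all 78 measured genes of these lists, 12 rose and 12 fell in adult against embryo fibroblasts, 28 rose and 4 fell in embryo fibroblasts against cardiomyocytes, and 32 rose and 9 fell in adult fibroblasts against cardiomyocytes. The first of these counts, 12 risen genes, was 19 without adult fibroblast replicate 3, and the count of 4 was 2 when any of embryo fibroblast replicates 1 and 2 or cardiomyocyte replicates 1 and 2 was left out.

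**Figure D4:**
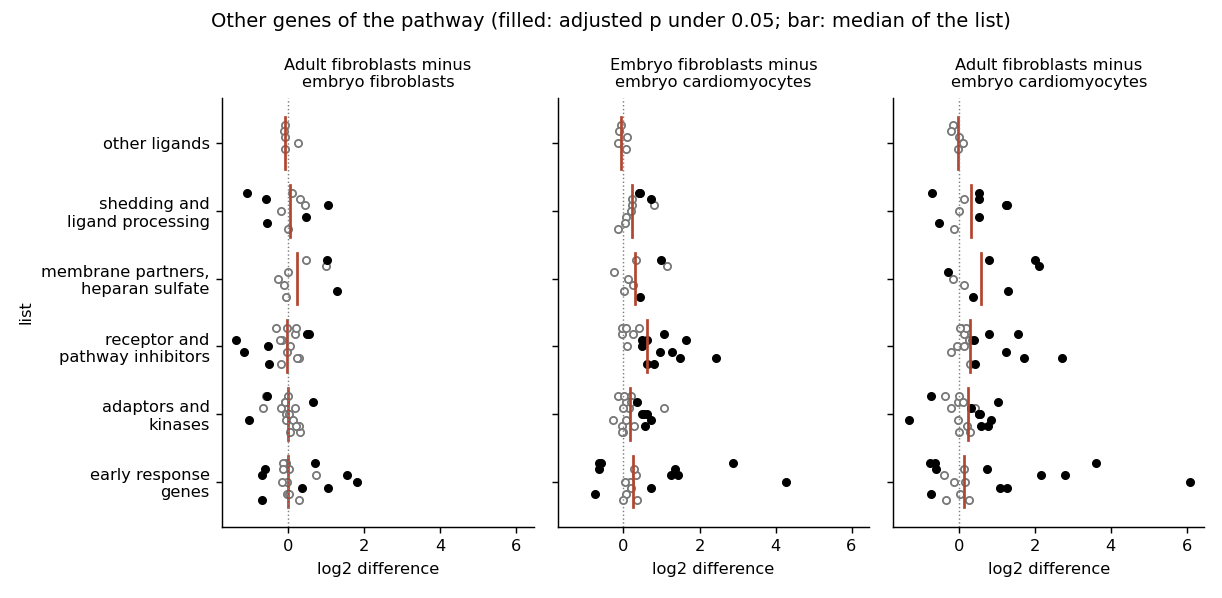
Log2 differences of the other genes of the pathway in 6 lists and 3 comparisons. Each point is a gene, filled where its adjusted p was under 0.05, and the bar is the median of the list. Inhibitors had a median of 0.61 in embryo fibroblasts against cardiomyocytes, and the other ligands stayed near 0 in all 3 panels.

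The genes whose patterns were nearest to each changed member were found by the root mean square difference over the 9 arrays, after each gene's own mean was subtracted. For Hbegf these were Arhgap28 at 0.23 log2 units, the endothelin gene Edn1 at 0.28, Nup210l, Parp8 and, at 0.35, the matrix gene Tgfbi. Edn1 stood at 8.58 ± 0.35 in adult fibroblasts, 9.54 ± 0.09 in embryo fibroblasts and 7.49 ± 0.29 in cardiomyocytes (SD, n = 3). Those nearest to Ereg were Clmp, at 0.13, the locus annotated as Mir155, Tmem45a, the protease inhibitor gene Tfpi2 and Abca9, at 0.22. For Nrg1 they were Fam24b (0.06), Lnx2, the keratin genes Krt7 and Krt8, and Lrrc34.

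Egfr was followed most closely by Enpp3 (0.14), the cytokine gene Il33 (0.18), Igfbp7, the aggrecanase gene Adamts5 and Gpm6b (0.24). Il33 stood at 10.76 ± 0.37 in adult fibroblasts, 7.97 ± 0.08 in embryo fibroblasts and 6.89 ± 0.27 in cardiomyocytes. For Erbb2 the nearest genes were Adgra3 (0.05), Ndrg3, Dpysl3, Rabl3 and Tada2a (0.10). For Erbb4 they were Nrap (0.07), which encodes a protein of striated muscle, the mitochondrial genes Slc25a11, Mrpl18 and Uqcr11 (0.14), and the muscle methyltransferase gene Smyd1 (0.14). Nrap stood at 7.63 ± 0.15 in adult fibroblasts, 8.83 ± 0.32 in embryo fibroblasts and 10.31 ± 0.20 in cardiomyocytes. These distances rank genes on the same 9 arrays and carry no test.

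**Figure D5:**
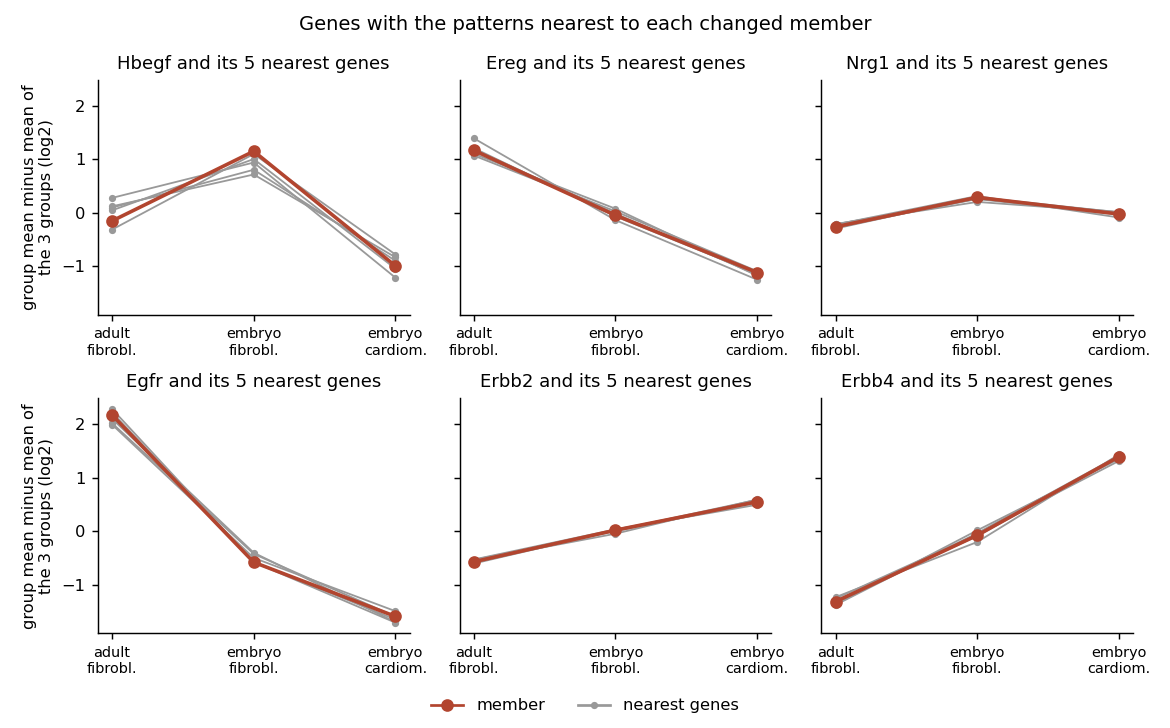
Group means minus the mean of the 3 groups (log2) for each changed member (thick line) and its 5 nearest genes (thin lines). The Hbegf lines peak in embryo fibroblasts, the Ereg and Egfr lines in adult fibroblasts, and the Erbb2 and Erbb4 lines in cardiomyocytes.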

How the data were processed

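Expression was measured on 9 one-colour arrays in 3 groups of 3, taken from the sample titles. The deposited values are log2 values of the authors. Per the submitters' processing notes they come from RMA, whose version is not named. The log base was read from their range (2.70 to 14.20), and no genome build is named upstream. Of 28767 probes, 21776 carried a single gene symbol in the platform annotation. The brightest probe represented each gene. limma 3.58.1 in R 4.3.3 was fitted to all 9 arrays with a mean per group, and p-values were adjusted over 19933 genes in each of 3 comparisons. The fit was tested on simulated data. The members, pathway lists and marker lists were chosen with earlier results of these data known, so no p was adjusted over a list. Named pathway genes are the called ones, or the 3 with the largest difference where a list had more in a direction. Nearest genes exclude predicted loci. Alternatives covered the replicate block, centring, quantile normalization, a dim-gene filter, probe averaging, limma-trend, array weights, fits of 2 groups and each array left out. The number of columns left unused was 0. Array number limits the precision.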

Additional observations from a re-analysis of the deposited data

How the results depend on the processing

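The counts of members called kept within 1.5 times their values under the alternatives run, except that the 2 members lower in embryo fibroblasts than cardiomyocytes were 1 to 2 over the arrays left out in turn (1 without cardiomyocyte replicate 2). With the replicate block 2 members were higher and 4 lower in adult against embryo fibroblasts, and the counts of the other comparisons were 4 and 2, and 3 and 2. The block changed no call of a member. The replicate numbers gave no sign of pairing: same-numbered arrays correlated in their deviations from the group means at -0.195 to 0.198. Of the single member results under an alternative, 439 kept direction and side of the threshold, 7 lost the call, 5 gained it and 8 turned sign. None of the 8 was called. Those for Btc in adult fibroblasts minus cardiomyocytes were 0.005 with centring and 0.045 without cardiomyocyte replicate 2, and -0.069 to 0.045 over the arrays left out. Tgfa turned to 0.01 in embryo fibroblasts minus cardiomyocytes without cardiomyocyte replicate 2, and to -0.01 with array weights and -0.003 without adult replicate 3 in adult fibroblasts minus cardiomyocytes. Over the arrays left out Tgfa ranged from -0.053 to 0.01 and from -0.003 to 0.082 in these comparisons. Erbb3 in adult minus embryo fibroblasts turned to 0.017 with centring, and to 0.006 and 0.052 without adult replicates 1 and 2 (-0.126 to 0.052 over the arrays left out). Nrg1 in adult fibroblasts minus cardiomyocytes was called after quantile normalization, the dim-gene filter, limma-trend and array weights (adjusted p = 0.0196 to 0.0422). With array weights the higher genes in adult against embryo fibroblasts numbered 2519 in place of 1662, and 19 pathway genes rose in place of 12. In embryo fibroblasts against cardiomyocytes the weights gave 3103 higher and 3362 lower genes in place of 2054 and 2212, and leaving out embryo fibroblast replicate 2 gave 1452 lower. The cause of these changes was not tested.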

Other observations

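A probe annotated to Erbb2 and to Sympk together was left out of the comparisons. Its values were 7.11, 7.08 and 7.73 in adult fibroblasts, 6.90, 7.0 and 7.01 in embryo fibroblasts, and 6.62, 7.0 and 6.63 in cardiomyocytes. This order of groups is the reverse of that of the probe for Erbb2 alone, and which of the genes the shared probe reads was not tested.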
